A study of Mus musculus with 2 samples.

Results

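The genes described here are 10 immediate early genes: Fos, Fosb and Fosl2, Jun, Junb and Jund, Egr1 and Egr3, Atf3 and Ier3. They were chosen by name, with earlier results of these data known, so counts of these genes beside all genes are a description. Every probe set that the array's annotation pairs with 1 of these genes alone was taken. Each gene had 1 probe set, which gave 10 of the 19938 genes named on the array. Ear RNA from late mouse gestation, E18.5, was profiled on 1 Affymetrix array of a BALB/c fetus or fetuses labelled Myf5-/-:MyoD-/-, called the double knockout here, and on 1 array of wild-type BALB/c ear. Myf5 and MyoD (Myod1) are transcription factors that set the skeletal muscle fate. The design of the null alleles, the part of the ear taken, and whether RNA was pooled over animals are not stated in the labels. With 1 array per genotype no difference below has a replicate check, and no test or p-value is possible.

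Immediate early genes are transcribed within minutes of a stimulus, from factors already present in the cell, and their transcripts are short-lived. Fos and Jun proteins pair through a leucine zipper to form AP-1, which binds promoters and enhancers of genes for growth, matrix turnover and stress, whereas Egr proteins are zinc finger factors induced by the same MAP kinase and serum response factor (SRF) pathways. In bone AP-1 acts in osteoblasts and osteoclasts, Egr1 is active in tendon, and Egr3 is needed to form muscle spindles, the stretch sensors within skeletal muscle. Stretch, growth factors and tissue dissection are known to induce genes of this kind.

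RefSeq promoter windows of build GRCm38.p6, from 250 bases before to 50 bases after the annotated start, were found for 8 of the 10 genes, and 6 are shown. Fosb, Atf3, Jund and Jun are shown because they read lower in the double knockout, Fosl2 because it read alike on both arrays, and Fos because it is the textbook immediate early promoter. The windows are Fos at chr12:85473640-85473939 on the plus strand, Fosb at chr7:19309996-19310295 on the minus strand, Fosl2 at chr5:32136222-32136521 on the plus strand, Jun at chr4:95052173-95052472 on the minus strand, Jund at chr8:70697489-70697788 on the plus strand and Atf3 at chr1:191183284-191183583 on the minus strand. Each is written 5′ to 3′ on the gene's strand. Capitals mark the core TGACG of the cyclic AMP response element (read as CGTCA on the other strand), the related octamer TGACATCA, the Egr site GCGNGGGCG and the TATA box TATAAA.
Fos: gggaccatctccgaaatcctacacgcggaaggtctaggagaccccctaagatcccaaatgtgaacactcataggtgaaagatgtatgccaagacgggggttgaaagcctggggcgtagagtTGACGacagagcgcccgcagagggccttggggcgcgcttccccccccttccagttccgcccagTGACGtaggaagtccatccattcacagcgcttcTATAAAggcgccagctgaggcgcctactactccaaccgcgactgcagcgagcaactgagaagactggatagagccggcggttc
Fosb: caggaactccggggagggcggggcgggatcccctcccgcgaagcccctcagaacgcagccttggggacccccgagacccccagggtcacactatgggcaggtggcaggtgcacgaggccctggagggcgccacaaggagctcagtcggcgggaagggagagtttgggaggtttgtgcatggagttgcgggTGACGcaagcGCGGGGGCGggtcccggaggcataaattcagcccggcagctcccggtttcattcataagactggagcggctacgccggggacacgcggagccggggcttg
Fosl2: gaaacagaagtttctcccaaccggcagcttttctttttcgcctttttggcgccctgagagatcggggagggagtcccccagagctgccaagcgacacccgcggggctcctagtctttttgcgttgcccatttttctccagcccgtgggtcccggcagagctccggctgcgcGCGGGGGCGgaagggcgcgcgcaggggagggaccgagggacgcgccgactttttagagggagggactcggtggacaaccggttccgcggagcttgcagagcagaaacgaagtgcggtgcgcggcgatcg
Jun: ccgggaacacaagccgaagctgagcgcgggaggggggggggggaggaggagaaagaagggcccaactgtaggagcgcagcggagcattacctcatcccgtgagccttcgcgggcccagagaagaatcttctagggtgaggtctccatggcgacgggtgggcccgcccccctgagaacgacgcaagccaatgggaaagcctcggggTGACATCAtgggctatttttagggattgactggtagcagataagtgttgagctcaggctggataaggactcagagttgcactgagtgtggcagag
Jund: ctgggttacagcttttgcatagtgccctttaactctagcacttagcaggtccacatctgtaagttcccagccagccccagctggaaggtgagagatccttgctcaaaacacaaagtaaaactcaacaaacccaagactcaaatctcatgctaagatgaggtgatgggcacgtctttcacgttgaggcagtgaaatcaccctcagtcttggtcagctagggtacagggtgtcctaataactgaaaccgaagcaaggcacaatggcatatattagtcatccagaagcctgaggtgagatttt
Atf3: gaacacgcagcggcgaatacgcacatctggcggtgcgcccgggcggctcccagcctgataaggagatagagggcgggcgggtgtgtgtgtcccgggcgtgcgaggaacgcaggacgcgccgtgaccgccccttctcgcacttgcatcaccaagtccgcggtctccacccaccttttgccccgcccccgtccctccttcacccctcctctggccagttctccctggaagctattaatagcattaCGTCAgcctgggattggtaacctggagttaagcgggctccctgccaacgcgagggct

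All motifs were searched on both strands of the 8 windows and of all 32851 windows in the RefSeq table. The core TGACG lay in 4 of 8, those of Fos, Fosb, Atf3 and Junb, against 20.8% of all windows. The octamer TGACATCA lay in that of Jun alone, against 3.62% of all windows. GCGNGGGCG lay in those of Fosb and Fosl2, against 5.55%, and TATAAA in those of Fos and Junb, against 13.6%. TATAAA began at base -33 from the annotated start in Fos but at base 1, the start itself, in Junb. The full element TGACGTCA, which holds TGACG, was in 0 of 8 against 1.79%, the AP-1 site TGANTCA in 0 of 8 against 7.81%, and the CArG box, the core of the site that SRF binds, in 0 of 8 against 1.63%. The serum response element known for Fos lies upstream of the window shown. A match is a run of letters and was not tested for binding. The 8 windows ran from 46.7% GC in Jund to 68.3% in Fosb. All but that of Jund exceeded 52.7%, the median of all windows, and the shares were not matched for GC content. Fosb, below the floor in the double knockout, and Fosl2, alike on both arrays, both hold the Egr letters, and any link between motifs and signals was not tested. The windows of Jund and Ier3 held none of these motifs.

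The signals are log2 values, 1 per probe set and array. The array's own median, 5.70 in the double knockout and 5.65 in the wild type, served as the floor below which a signal was not read as a level. Of the 10 genes, 5 lay above the floor in the double knockout and 8 in the wild type. Jun, Jund, Egr1, Egr3 and Fosl2 were above it on both arrays, Fosb, Atf3 and Ier3 in the wild type alone, and Fos and Junb on neither. Each difference is the double knockout's log2 signal less that of the wild type. As deposited, 9 of 10 were below 0, among them Fos and Junb, whose signals were below the floor on both arrays. The differences ranged from -0.84 to 0.02 with a median of -0.47. Of the 8 genes above the floor on 1 array or both, 7 were below 0. Over all 19938 genes 42.4% of differences were below 0, and among the 12458 that exceeded the floor on 1 array or both 51.3% were, with a median of -0.01. Of the 5 genes above it on both arrays 4 were below 0, against 51.2% of all such genes. Of the 8 among the 12458, 3 were above the floor in the wild type alone, against 3.61% of the 12458. These 3, Fosb, Atf3 and Ier3, are also among the 7 below 0. Their wild-type signals, 5.73 to 6.29, lay near the floor, whereas 11626 of the 12458 genes exceeded it on both arrays. The shares are therefore not like for like.

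**Figure D1:**
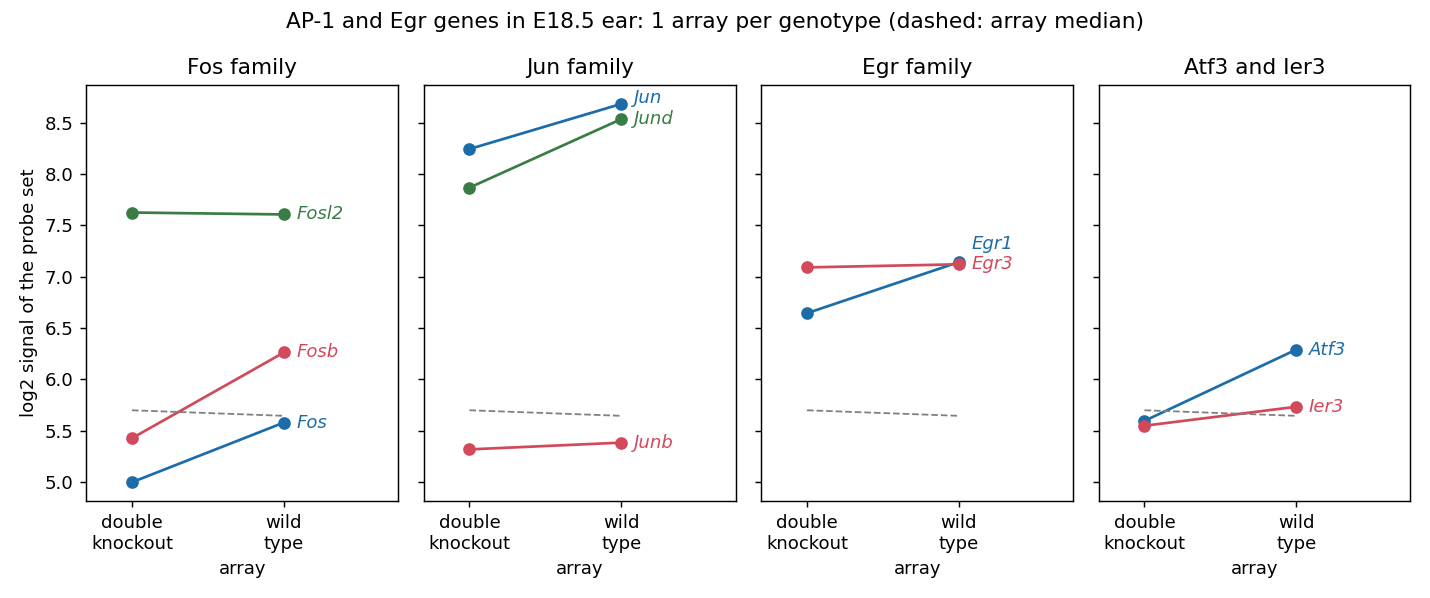
Log2 signal of the single probe set of each gene on the double knockout array (left in each panel) and the wild-type array (right), with the array medians dashed (5.70 in the double knockout, 5.65 in the wild type). As deposited, Fosl2 alone reads higher in the double knockout, by 0.02 (-0.01 with equal housekeeping medians). Heights of different genes cannot be set against each other because their probe sets differ.

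As deposited, none of the 10 genes was 2-fold apart, though signals below the floor were not read as levels. At least 2-fold lower were 0 of the 8 that entered with the floor, where 1.71% of the 12458 genes were, and 0 of all 10 without a floor, where 1.4% of all genes were. At least 2-fold higher were also 0 of 8, against 0.482% of genes. At 1.5-fold, 2 of 8 were lower, Jund and Atf3, against 3.62% of genes, and 0 of 8 were higher, against 2.25%. Since Fosb, Atf3 and Ier3 entered through their wild-type signal alone, they had to come out lower or close to 0. Their wild-type signals, 6.26, 6.29 and 5.73, lay less than 2-fold above the double knockout's floor of 5.70. After the floor these 3 genes could therefore not reach 2-fold lower, and the counts describe the arrays. Without a floor, 3 of 10 were at least 1.5-fold lower, Jund, Atf3 and Fosb, against 3.07% of all 19938 genes.

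Among the Jun genes, which encode the AP-1 subunits that can pair with each other as well as with Fos proteins, 2 were measured on both arrays. Jund read 7.87 in the double knockout and 8.53 in the wild type, a difference of -0.67 or 1.59-fold lower. Of the 12458 genes, 360, or 2.89%, had a lower difference. Jund is the Jun gene that resting cells express steadily. Jun itself read 8.24 in the double knockout and 8.68 in the wild type, a difference of -0.44 or 1.36-fold lower, with 5.88% of genes lower still. Junb, which can act against Jun at some promoters, read 5.32 in the double knockout and 5.39 in the wild type. Both Junb signals were below the floor, so no fold is given.

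The Fos genes encode subunits that bind DNA only when paired, chiefly with Jun proteins. Their signals went apart. Fosb read 5.43 in the double knockout, below the floor, and 6.26 in the wild type, so it was at least 1.48-fold lower. Fos read 4.999 in the double knockout and 5.58 in the wild type, below the floor on both arrays. Its deposited values differed by -0.58, and no fold is given for Fos. Fosl2, the Fra-2 subunit, which osteoblasts and chondrocytes express, read 7.62 in the double knockout and 7.61 in the wild type. That difference of 0.02, which became -0.01 with equal housekeeping medians, lay near the middle of all genes, with 55.3% lower.

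Both Egr genes were above the floor on both arrays. Egr1 read 6.64 in the double knockout and 7.14 in the wild type, a difference of -0.50 or 1.41-fold lower, with 4.76% of genes lower still. Egr3, the spindle gene, read 7.09 in the double knockout and 7.12 in the wild type. Its difference of -0.03 lay near the middle of all genes, with 44.9% lower. Whole-tissue RNA does not tell which cells gave the Egr3 signal.

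Atf3 encodes a stress-induced factor that pairs with Jun proteins and often represses, and Ier3 encodes a small protein that modulates ERK signalling and cell survival. Atf3 read 5.60 in the double knockout, below the floor, and 6.29 in the wild type, at least 1.51-fold lower. Ier3 read 5.55 in the double knockout, also below the floor, and 5.73 in the wild type, at least 1.02-fold lower. The wild-type signal of Ier3 itself was close to the floor, so a larger difference could not have been measured.

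Differences depended on signal, so the genes were also set beside others of like brightness, a division made after the values were seen. Between mean log2 signals of 5 and 6, where Fos, Fosb, Junb, Atf3 and Ier3 lie, the median difference of 3067 genes was 0.09 and 36.1% were below 0. All 5 were below 0 there, and Fosb and Atf3 were among the 4.08% of these genes at least 1.5-fold lower without a floor. Between 8 and 9, where Jun and Jund lie, the median over 2331 genes was -0.02, and Jund was among the 3.3% at least 1.5-fold lower. Between 7 and 8, where Egr3 and Fosl2 lie, 54.6% of 3650 genes were below 0, and Egr3 was one of them. Egr1 lay between 6 and 7, where the median over 3673 genes was -0.003.

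**Figure D2:**
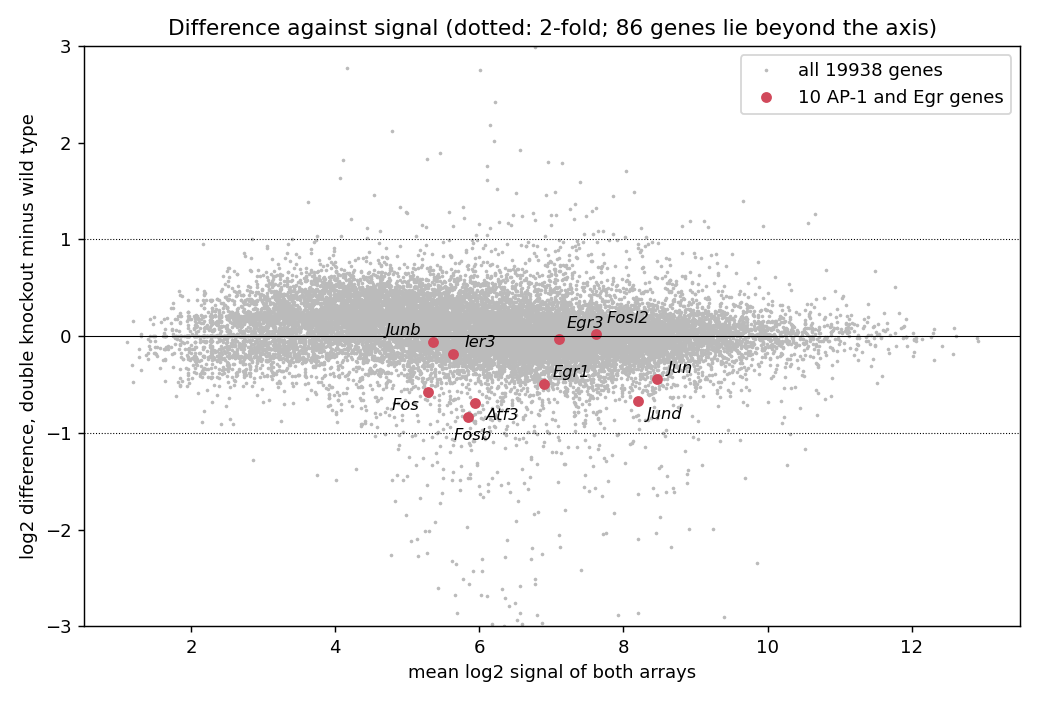
Log2 difference, double knockout minus wild type, against the mean log2 signal of both arrays for all 19938 genes (grey) and the 10 genes (red), as deposited and without a floor; dotted lines mark 2-fold, and 86 genes lie beyond the axis. The red points lie between -0.84 and 0.02, all inside 2-fold.

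For scale, the standard deviation of the difference was 0.344 among the 11626 genes read above the floor on both arrays. Between probe sets of 1 gene it was 0.168, from 619 genes, a measure of probe noise that leaves out any variation from animal to animal. The differences of Jund, Egr1 and Jun exceed the second value, and those of Egr3 and Fosl2 do not. The spread between fetuses and between dissections was not measured.

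Other genes of the pathway were read from lists, with medians after the floor. The shares over all 12458 genes to set beside their counts are the 51.3% below 0, 3.62% at least 1.5-fold lower and 2.25% at least 1.5-fold higher given above. Of 17 bZIP relatives of AP-1 with a probe set, 11 were above the floor, 8 of them below 0, with a median of -0.07 and 0 at 1.5-fold in either direction. Atf2, a JNK target that pairs with Jun, read 9.51 in the double knockout and 9.33 in the wild type. Maf, a large Maf protein, differed by 0.26, Atf7 by -0.07 and Mafa by -0.28. As deposited, those below the floor on both arrays, Fosl1, Batf3, Batf, Batf2, Nrl and Maff, differed by 0.65, 0.45, 0.38, 0.29, 0.10 and -0.18. Of 5 genes in the list of Egr relatives and NAB corepressors 3 were above the floor, with a median of -0.11. Egr2, which Schwann cells need for myelination, read 5.73 in the double knockout and 6.08 in the wild type, whereas the corepressors Nab1 and Nab2, which bind Egr proteins, differed by -0.11 and 0.00. Egr4 and Wt1, below the floor on both arrays, differed by 0.35 and 0.18 as deposited.

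Most other early response genes read within 1.5-fold on the arrays. Of 45 with a probe set 39 were above the floor, 25 of them below 0, with a median of -0.08. At 1.5-fold 2 of 39 were lower, near the 3.62% of all genes, and 0 were higher, against 2.25%. At 2-fold 0 were lower or higher. Sik1, a kinase induced by cyclic AMP, read 8.05 in the double knockout and 8.65 in the wild type. Nr4a1, an early-induced nuclear receptor named after its values were seen, read 7.29 in the double knockout and 7.81 in the wild type. The other gene past 1.5-fold, Ankrd1, a stretch-responsive muscle gene also named after its values were seen, was at least 1.62-fold lower. The abundant members Thbs1, Btg1 and Ccn2 differed by -0.08, -0.07 and -0.15, and Cebpb by 0.29.

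Phosphatases and feedback inhibitors of MAP kinases, several of them induced by ERK, had a median of -0.08, with 11 of 15 below 0, against 51.3% of all genes. A 75th percentile floor gave a median of -0.37. Dusp10, which removes phosphate from p38 and JNK, read 7.22 in the double knockout and 8.08 in the wild type, 1.81-fold lower and the only one past 1.5-fold. Named after their values were seen, Dusp1 and Dusp6, both induced by ERK, differed by -0.44 and -0.36, Dusp16 by -0.50, and the Sprouty genes Spry1, Spry2 and Spry4 by -0.39, -0.38 and -0.51. Dusp7, Spred1 and Spred2, the brightest, differed by 0.11, -0.05 and -0.04, and Spred3 by 0.24. The rest of the list above the floor, Dusp4, Dusp5, Dusp8 and Dusp14, differed by -0.08, 0.08, -0.05 and 0.11. Of the kinases themselves 9 of 18 were below 0, with a median of 0.01. Mapk10, the JNK gene of neurons, read 8.77 in the double knockout and 8.16 in the wild type, 1.52-fold higher, and Mapk12, the p38 gene of skeletal muscle, read 5.99 in the double knockout and 6.67 in the wild type, 1.6-fold lower. Mapk8 differed by 0.29 and Mapk14 by -0.22.

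SRF with its cofactors and CREB with its coactivators, factors of immediate early promoters counted as 1 list, had a median of -0.07, with 8 of 14 below 0. Srf itself read 7.76 in the double knockout and 8.58 in the wild type, 1.77-fold lower and the only one past 1.5-fold. Mrtfb, an SRF coactivator named after its values were seen, differed by -0.51. On the CREB side Crebbp, Creb3l1 and Ep300 differed by 0.02, 0.06 and 0.06, and Crtc1 by 0.22. The rest of the list above the floor went both ways on either side. Of the SRF cofactors, Elk3, Elk4 and Mrtfa differed by -0.22, -0.20 and -0.20, and Elk1 by 0.21. Creb1, Crtc2 and Crtc3 differed by 0.01, -0.06 and -0.08. Crem, below the floor in the double knockout, was at least 1.18-fold lower. SRF is active in muscle as well as in the response to serum.

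**Figure D3:**
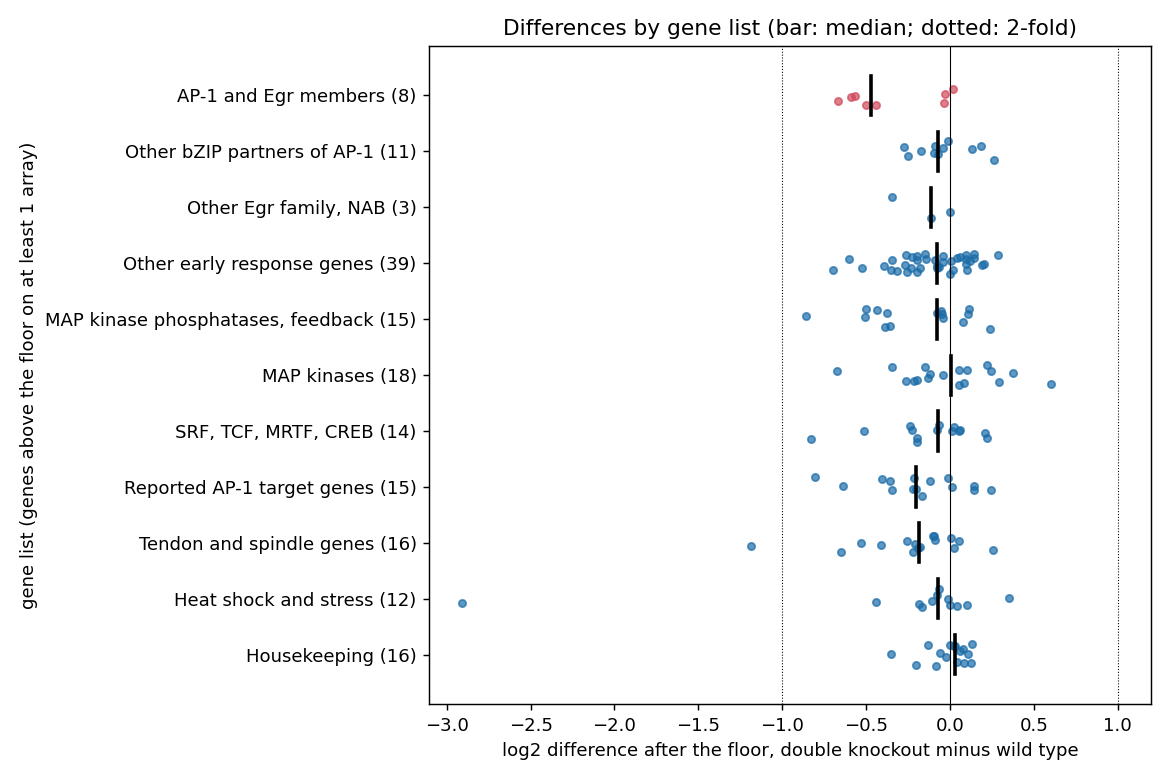
Log2 difference after the floor, double knockout minus wild type, for each gene (point) of the 10 genes and of 10 lists, with the median as a bar; numbers in brackets count the genes that entered. The median is -0.47 for the 8 of the 10 genes that entered and lies between -0.20 and 0.03 for the other lists. Of the 8, Fosb, Atf3 and Ier3 entered through their wild-type signal alone and could only come out lower or close to 0. Most genes of the other lists were above the floor on both arrays, so the medians are not like for like.

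Genes reported as AP-1 targets had a median of -0.20, or -0.01 without a floor. Of 15, 11 were below 0, against 51.3% of all genes, and 2 were at least 1.5-fold lower, against 3.62%. Cd44, a hyaluronan receptor, read 6.41 in the double knockout and 7.21 in the wild type. The other, named after its values were seen, was Timp1, a protease inhibitor, which read 7.26 in the double knockout and 7.90 in the wild type. Vim and the bone genes Ibsp and Ctsk differed by -0.20, 0.24 and -0.01. Genes of tendon and muscle spindle had a median of -0.18, with 12 of 16 below 0. Tnmd, the tenomodulin gene of tendon, read 8.26 in the double knockout and 9.45 in the wild type, 2.27-fold lower, while Col1a1, Col1a2, Tgfb3 and Nrg1 differed by -0.10, -0.10, -0.19 and 0.26. Heat shock and stress genes had a median of -0.07, with 8 of 12 below 0. Hspb1, a small heat shock protein abundant in muscle, was 7.5-fold lower. Hspa8, Hspa5 and Hsp90aa1 differed by -0.01, -0.11 and -0.08, and Chac1 by 0.35. Housekeeping genes had a median of 0.03, with Eef1a1, Actb and Eef2 at 0.00, 0.08 and -0.02, Hprt at -0.35 and Ywhaz at 0.13.

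Markers of several cell types moved on the same arrays, and their part in the values of the 10 genes was not tested. The shares over all 12458 genes were 51.3% below 0, 1.71% at least 2-fold lower and 0.482% at least 2-fold higher. In whole tissue, fewer cells of a type and less RNA per cell cannot be told apart. The 17 skeletal muscle markers were all lower, 16 of them at least 2-fold, with summed linear signals of 838 in the double knockout and 30902 in the wild type, and Acta1 was 88.3-fold lower. All 10 tendon markers were below 0, with sums of 7253 in the double knockout and 10021 in the wild type. Smooth muscle markers, 7 of 8 below 0, summed to 2279 in the double knockout and 3568 in the wild type. Macrophage and granulocyte markers, 10 of 11 below 0, summed to 1782 in the double knockout and 2266 in the wild type. Other markers read higher: those of adipocytes, 0 of 11 below 0, summed to 13849 in the double knockout and 7980 in the wild type, those of brain and cortex, 2 of 11 below 0, to 2359 in the double knockout and 1596 in the wild type, and those of salivary gland, 0 of 8 below 0, to 10805 in the double knockout and 207 in the wild type. The salivary genes Bpifa2 and Smgc were below the floor in the wild type. Median differences were -0.01 for 10 endothelial markers, 0.00 for 8 of cartilage, 0.05 for 7 of bone and osteoclasts, 0.05 for 9 of epidermis and 0.03 for 10 of the inner ear. In the epidermal list 2 of 9 were past 2-fold, the keratins of differentiated epidermis Krt1 and Krt10, named after their values were seen and at least 3.67-fold and 3.43-fold higher. Of 11 inner ear markers 10 were above the floor on both arrays, with Oc90, of otoconia, at 11.26 in the double knockout and 11.28 in the wild type. Both targeted genes read lower in the double knockout. Myod1 read 6.38 in the double knockout and 6.95 in the wild type, above the floor on both arrays. Myf5 read 5.25 in the double knockout, below the floor, and 5.94 in the wild type, above it. The design of the null alleles is not stated, so these signals are no firm check of the labels.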

How the data were processed

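Total RNA (6 µg per array, per the labels) of E18.5 ear was hybridised to 2 arrays, 1 per group. The deposited table holds 1 log2 value for each of 35557 probe sets. MAS5 is named in the submitters' processing notes, without version or role; no label gives a background correction, a normalization or a build. The base of the logarithm was taken from the range, 0.75 to 13.26 in the double knockout and 0.81 to 13.27 in the wild type. Trimmed means of linear signal (2% off each end) were 138 in the double knockout and 140 in the wild type, so values were used as deposited.

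GEO's platform annotation, possibly outdated, paired 21789 probe sets with 1 gene, 1621 with several and 12147 with none; 21698 had an Entrez identifier in the RefSeq table of GRCm38.p6. The probe set of highest mean linear signal stood for a gene. Values below the 50th percentile of an array were raised to it; a fold against such a value is a bound. Thresholds were 2-fold and 1.5-fold. The text names the 10 genes and, for each of 10 related lists, the 3 of highest signal and the largest lower and higher difference of genes measured on both arrays. Of the 12 marker lists, counts with either summed linear signals or medians are given, and a few single genes. Members and lists were chosen with earlier results of these data known. Python 3.11.15, pandas 2.3.3 and statsmodels 0.14.6 were used, and the calculation was tested on simulated data. 1 array per group limits the precision of every value.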

Additional observations from a re-analysis of the deposited data

How the results depend on the processing

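The alternatives were 5 other scalings, a lower and a higher floor (25th, 75th percentile), none, a pseudocount of the median signal, probe sets combined by their median, and cutoffs of 1.5-fold and 3-fold. No paired analysis was possible because each group has 1 array. The median of the genes that entered ranged from -0.50 to -0.34, and 8 to 10 of the 10 genes were below 0. That count takes all 10 genes whatever the floor, and each has 1 probe set. The choice of floor and the combining of probe sets therefore could not change it. Fosl2 was below 0 with equal housekeeping medians, at -0.01. The count of genes at least 2-fold lower was 0 under every scaling, floor and pseudocount tried and with a threshold of 3-fold, and was 2 at 1.5-fold. With the floor at the array median, Fosb, Atf3 and Ier3 could not have reached 2-fold lower. With each scaling, floor or pseudocount the count at least 1.5-fold lower ranged from 0, with the pseudocount, to 3. The floor at the 75th percentile left 3 of the 10 genes, with a median of -0.44. Jund stayed between -0.70 and -0.56, Jun between -0.47 and -0.38, Egr1 between -0.53 and -0.33 and Egr3 between -0.06 and -0.01. Fosb lay between -0.84, without a floor, and -0.42, and Atf3 between -0.69 and -0.36. Phosphatases and feedback inhibitors had a median of -0.37 with the floor at the 75th percentile, and AP-1 targets one of -0.01 without a floor. Signals near the floor, those of Fos, Junb and Ier3 above all, limit what can be read.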
